A study of Mus musculus with 12 samples.

Results

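Glucose breakdown and the response to low oxygen were followed through 36 genes in mouse leukaemia stem cells with and without telomerase RNA. The genes were taken by symbol, old or current, from the platform annotation of the deposited values. They comprise 4 transporters of glucose and lactate, 16 enzymes of glycolysis, 5 enzymes and regulators of pyruvate and lactate, 3 genes of oxygen sensing and 8 genes induced by hypoxia. A named probe existed for 32 of the 36, and 29 were above background on at least 3 arrays and were tested, out of 12061 genes tested in all. Hk2, Gpi1, Pfkfb3 and Eno1 had no probe named for them and are not analysed here. Slc16a1, Eno2 and Bnip3 had a probe but did not pass the background filter.

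The study profiled leukaemia stem cells on 12 Illumina bead arrays, 6 labelled Terc-/- (generation G3) and 6 labelled WT. Terc is the gene of telomerase RNA, and all cells in both groups also carried MLL-AF9, a fusion oncogene of acute myeloid leukaemia, linked to green fluorescent protein. C57BL/6J recipients aged 6 to 8 weeks were irradiated with a sublethal 5.5 Gy and injected with 10000 lineage-negative, Kit-positive, Sca1-positive marrow cells of either genotype. When leukaemia appeared in a recipient, its marrow was sorted for stem cells (green fluorescence, no lineage markers, Kit and Fcgr present). Because the irradiation was sublethal, recipients kept marrow of their own, and the telomerase genotype of the recipients is not stated in the labels. The Terc-/- arrays also carry a phosphorylation status, which is p-p53 (Ser15) for replicates 2, 3 and 6, p-Foxo3a (Ser253) for replicates 1 and 4, and not given for replicate 5. The Terc-/- arrays 2 and 6 were nearly identical and were averaged into 1 sample, written 2+6, as were the WT arrays 5 and 6, so that 5 Terc-/- and 5 WT samples were compared. The labels do not state whether each sample is a separate animal, and the p-values therefore reflect only how these samples spread, which may be technical.

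Glycolysis converts glucose to pyruvate in the cytosol and yields ATP without oxygen. Hexokinases trap glucose in the cell, phosphofructokinases set much of the flux, and lactate dehydrogenase regenerates the cofactor by making lactate, which leaves through monocarboxylate transporters. Under low oxygen the prolyl hydroxylases Egln1 and Egln3 lose activity, the transcription factor Hif1a is stabilised, and glucose transporters, glycolytic enzymes and genes such as Vegfa and Bnip3 are induced. Blood stem cells in bone marrow are known for relying on glycolysis, and Hif1a protein is controlled largely after translation, so its mRNA does not measure its activity.

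The binding site of the hypoxia-inducible factors has the core ACGTG or GCGTG, which was searched on both strands of RefSeq promoter windows of 300 bases (250 before and 50 after the annotated start, GRCm38.p6). ACGTG also lies within CACGTG, the E-box of Myc and related factors, where it is matched on both strands. Windows were found for 34 of the 36 genes, and 31 of these 34 (91.2%) held the core in at least 1 window, against 63.9% of all tested genes with a window and 46.7% of all genes in the table. Of single windows, 40 of 49 (81.6%) of the genes described here held it, against 58.5% of windows of tested genes. A match is a run of letters and not a shown binding site, and several of these genes are textbook targets of the factor. The windows below belong to the 4 genes that had an unadjusted p under 0.05 in Terc-/- minus WT (Slc2a1, Hif1a) or in p-Foxo3a minus WT (Slc2a1, Pfkm, Gapdh). The core is in capitals on either strand. Slc2a1 is read from chr4:119108495-119108794 (plus strand), Hif1a from chr12:73907617-73907916 (plus strand), Pfkm from chr15:98092339-98092638 (plus strand, the first listed of 4 windows) and Gapdh from chr6:125165724-125166023 (minus strand).
Slc2a1: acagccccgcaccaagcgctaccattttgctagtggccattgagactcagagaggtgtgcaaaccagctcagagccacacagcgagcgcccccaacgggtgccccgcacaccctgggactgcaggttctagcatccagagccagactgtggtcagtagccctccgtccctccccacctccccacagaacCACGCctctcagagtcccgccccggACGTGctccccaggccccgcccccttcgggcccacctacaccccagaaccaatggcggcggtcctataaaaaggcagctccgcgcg
Hif1a: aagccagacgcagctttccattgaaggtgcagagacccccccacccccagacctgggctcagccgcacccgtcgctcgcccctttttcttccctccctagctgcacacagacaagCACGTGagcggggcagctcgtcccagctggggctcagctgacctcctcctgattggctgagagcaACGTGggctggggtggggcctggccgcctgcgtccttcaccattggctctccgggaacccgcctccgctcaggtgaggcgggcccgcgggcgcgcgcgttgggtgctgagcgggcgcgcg
Pfkm: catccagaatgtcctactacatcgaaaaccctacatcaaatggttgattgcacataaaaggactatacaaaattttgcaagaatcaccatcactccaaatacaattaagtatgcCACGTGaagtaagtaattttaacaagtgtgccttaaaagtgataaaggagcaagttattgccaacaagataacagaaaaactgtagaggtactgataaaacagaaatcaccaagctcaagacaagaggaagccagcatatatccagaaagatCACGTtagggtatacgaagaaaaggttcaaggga
Gapdh: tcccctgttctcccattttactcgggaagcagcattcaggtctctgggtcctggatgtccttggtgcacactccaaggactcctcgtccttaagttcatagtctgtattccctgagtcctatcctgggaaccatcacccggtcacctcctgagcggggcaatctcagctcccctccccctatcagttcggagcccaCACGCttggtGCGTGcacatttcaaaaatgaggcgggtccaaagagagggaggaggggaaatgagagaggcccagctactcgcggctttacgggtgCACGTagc
The Slc2a1 window holds 2 matches, and the printed Hif1a, Pfkm and Gapdh windows hold 3 each. Of these, 2 in Hif1a and 2 in Pfkm are the same CACGTG read on both strands. The Pfkm windows not printed hold 2, 1 and 0 matches.

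Values are the authors' deposited log2 intensities, and the arrays had 19515 to 19717 probes above a background limit of 6.56. Of the markers of the sorted progenitors, 17 of 18 were above background, among them Kit, Fcgr2b and Mpo, and Flt3 was not. Of the markers of neutrophils 12 of 14 were above background, and of monocytes and macrophages 11 of 14. Those of mast cells, basophils and eosinophils were 8 of 8, and of stroma and endothelium 7 of 9. Erythroid markers gave 6 of 14, B cell 5 of 9, megakaryocyte 3 of 7 and T and NK 4 of 12. The totals include genes with no named probe, namely 4 erythroid, 2 monocyte and macrophage and 2 T and NK markers. The same holds for 2 B cell, 2 megakaryocyte and 1 neutrophil marker. Among all probes, 22292 of 38502 passed the same filter. Some counted markers lay at the limit, such as Col3a1 (6.37 to 6.61) and Gata1 (6.35 to 6.59) in Terc-/- samples. Pecam1 lay between 9.20 and 10.89 there. The Terc-/- replicate 1 stood apart, with a median correlation of 0.961 to the other samples against 0.975 to 0.984 for the others. In that sample, the median log2 deviation from the other 9 samples, over genes with a mean above 8, was 0.39 on chromosome 6, 0.41 on chromosome 16 and -0.21 on chromosome 2. On chromosome 19 it was -0.30 in WT replicate 2 and -0.22 in WT 5+6. The chromosome 6 genes among those described are Slc2a3, Tpi1, Gapdh and Ldhb, the chromosome 19 genes are Pgam1 and Mxi1, Pdk1 lies on chromosome 2, and none lies on chromosome 16. No probe is named Terc, so the knockout itself was not checked.

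The first comparison asked how expression of the glycolytic and hypoxia genes differs in leukaemia stem cells without telomerase RNA. No gene passed an adjusted p of 0.05 in limma (0.0% of 12061 genes), while 2.79% of all genes had a higher mean and 4.64% a lower mean in Terc-/- at an unadjusted p under 0.05. Of the 29 tested genes, 20 had a higher and 9 a lower mean in Terc-/-, with a median difference of 0.09, against 46.0% higher and a median of -0.01 over all genes. Adm, among the 20, was above the background limit in 2 Terc-/- samples and 0 WT samples, and 19 of the 28 others had a higher mean. At an unadjusted p under 0.05, 2 were higher (Slc2a1 and Hif1a) and 0 were lower. The higher means were spread over roles, with 2 of 3 transporters and 8 of 11 glycolytic enzymes (median 0.13). Oxygen-sensing genes were higher in 3 of 3 (median 0.49), and hypoxia-induced genes in 5 of 7 (median 0.07), or 4 of 6 without Adm. Of the 5 pyruvate and lactate genes, 2 had a higher and 3 a lower mean (median -0.04). In bulk samples, fewer cells of a type and less RNA per cell cannot be told apart.

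**Figure D1:**
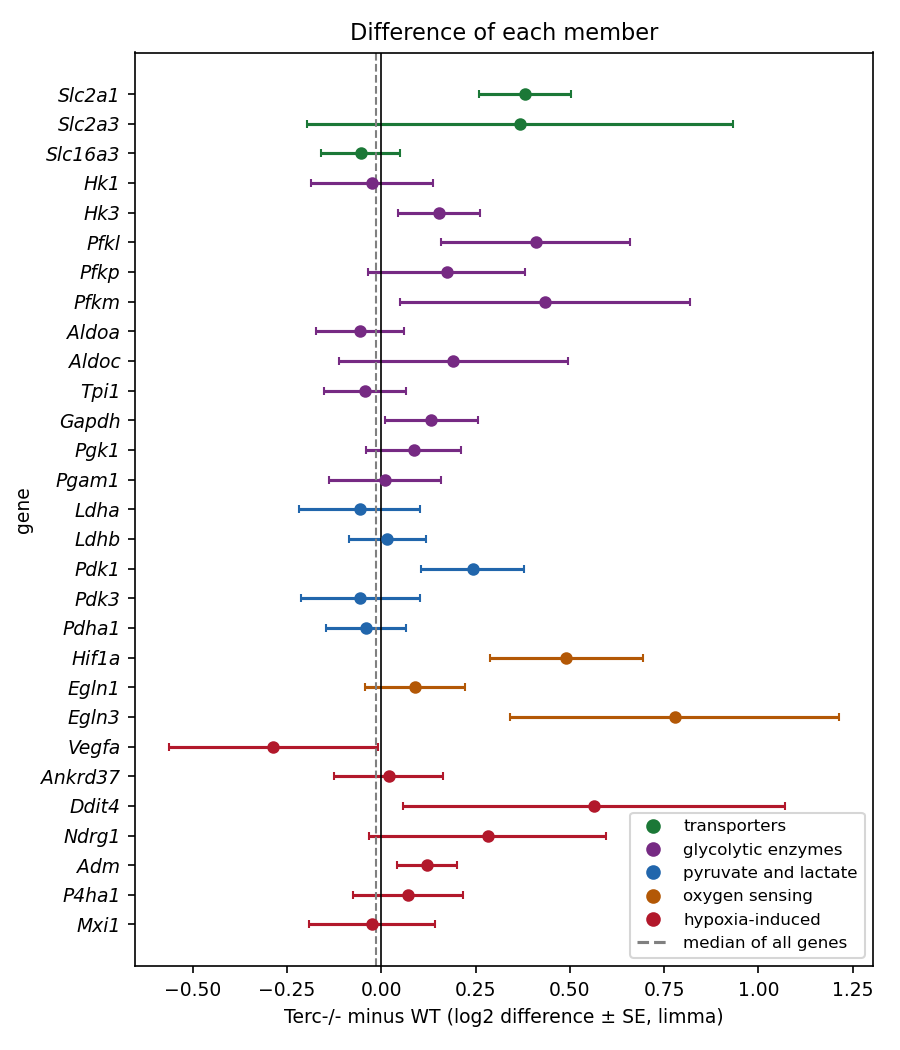
Difference in log2 value, Terc-/- minus WT, of each of the 29 tested genes (dot) with its standard error from limma (bar), coloured by role. The dashed line is the median of all genes (-0.01), and 20 of the 29 dots lie right of 0. Adm, among these 20, was above the background limit in 2 Terc-/- samples and 0 WT samples.

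Among the transporters, Slc2a1, the main glucose transporter of many blood cells, had values of 9.71, 9.64, 9.74, 10.09 and 10.03 in Terc-/- samples 1, 2+6, 3, 4 and 5, against 9.16, 9.38, 9.58, 9.61 and 9.59 in WT samples 1, 2, 3, 4 and 5+6. Every Terc-/- value lay above every WT value, and the closest were 9.64 in Terc-/- 2+6 and 9.61 in WT 4. The means were 9.84 ± 0.21 in Terc-/- and 9.46 ± 0.19 in WT (SD, n = 5 each). The difference was 0.38 ± 0.12 (SE), a 1.30-fold higher level in Terc-/-, with an unadjusted p of 0.0100 and an adjusted p of 0.637 in limma. Slc2a1 was the only gene of the 29 whose groups did not overlap, as was true with Terc-/- higher for 0.348% of all genes and with Terc-/- lower for 0.829%. Leaving out single samples moved its difference between 0.31 and 0.43.

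Slc2a3, a high-affinity glucose transporter, had values of 10.06, 7.39, 10.77, 8.97 and 8.25 in Terc-/- samples, against 8.74, 8.29, 8.68, 9.53 and 8.36 in WT samples. It is shown because it was the most variable gene of the set (SD 0.98 over 10 samples, with only 1.51% of all genes more variable), which was chosen after its values were seen. The highest 2 and the lowest 2 of its values were all in Terc-/- samples, and its difference of 0.37 ± 0.57 turned to -0.05 without Terc-/- replicate 3 and was 0.79 without Terc-/- 2+6. Slc16a3, which exports lactate, was close to background, between 6.63 and 7.11 in Terc-/- samples and between 6.82 and 7.11 in WT samples. The difference was -0.06 ± 0.10 for its brightest probe, while its other 2 probes differed by 0.10 and 0.02. Slc16a1, which carries lactate in both directions, lay between 6.27 and 6.53 in all 10 samples and was not above background.

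Phosphofructokinase catalyses the committed step of glycolysis, and 0 of the 11 tested glycolytic enzymes had an unadjusted p under 0.05 in limma (2.79% of all genes higher and 4.64% lower). Pfkl, the liver-type subunit, had values of 11.80, 11.02, 10.72, 11.22 and 11.51 in Terc-/- samples, against 10.93, 11.14, 11.22, 10.04 and 10.90 in WT samples. Its difference was 0.41 ± 0.25 (unadjusted p = 0.133) and became 0.21 without WT replicate 4, the sample with the lowest value. A second, dimmer Pfkl probe (mean 6.95) gave a difference of 0.17. That probe stood at 6.84 in WT replicate 4, against 6.86 to 6.88 in the other WT samples. Pfkm, the muscle-type subunit, had values of 10.53, 8.77, 8.55, 9.63 and 9.25 in Terc-/- samples, against 9.72, 8.43, 9.23, 8.29 and 8.89 in WT samples. Its groups overlapped, its difference was 0.43 ± 0.38, and this became 0.14 without Terc-/- replicate 1, the sample with the highest value. Pfkp, the platelet-type subunit, had values of 10.10, 9.51, 9.55, 10.23 and 10.25 in Terc-/- samples, against 10.24, 9.79, 9.89, 9.25 and 9.62 in WT samples (difference 0.17 ± 0.21). In Pfkp and Pfkm alike, the 2 Terc-/- samples labelled p-p53 lay below the other 3 Terc-/- samples.

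Hk3, a hexokinase abundant in myeloid cells, had values of 13.90, 13.52, 13.96, 13.80 and 14.02 in Terc-/- samples, against 13.56, 13.60, 13.60, 13.85 and 13.83 in WT samples. Terc-/- 2+6 had the lowest value of all 10 samples and 3 Terc-/- samples lay above every WT sample, with a difference of 0.15 ± 0.11. Hk1, the widely expressed hexokinase, lay between 8.02 and 8.92 in Terc-/- samples and between 8.40 and 8.90 in WT samples, and its 2 probes differed in sign (-0.02 and 0.17).

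Gapdh, which reduces NAD in the pathway, had values of 14.77, 14.46, 14.18, 14.60 and 14.36 in Terc-/- samples, against 14.48, 14.41, 14.46, 14.04 and 14.31 in WT samples (difference 0.13 ± 0.12). The highest value was in Terc-/- replicate 1, the sample whose chromosome 6 genes were higher by 0.39, and without it the difference was 0.06. Pgk1, which makes the first ATP of the pathway, had values of 12.45, 12.19, 12.84, 12.49 and 12.73 in Terc-/- samples, against 12.38, 12.51, 12.23, 12.57 and 12.57 in WT samples. The Pgk1 groups overlapped, and the difference of 0.09 ± 0.13 lay within its standard error. A second, dimmer Pgk1 probe (mean 6.89) gave a difference of 0.22 and a correlation of -0.35 with the first over the 10 samples. Tpi1, which interconverts the triose phosphates, was also highest in Terc-/- replicate 1 (14.07, against 13.52 to 13.85 in WT samples), and its mean was lower in Terc-/- by a difference of -0.04 ± 0.11. Pgam1, a mutase on chromosome 19, was lowest in WT 5+6 (10.87) and WT replicate 2 (10.90), the 2 samples whose chromosome 19 genes were lower, and it averaged 11.14 ± 0.16 in Terc-/- and 11.13 ± 0.32 in WT (SD, n = 5 each). With the median of each chromosome removed from every sample, the difference of Pgam1 changed from 0.01 to -0.07.

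Aldoc, an aldolase known best from brain, had values of 7.31, 7.08, 6.66, 8.37 and 7.16 in Terc-/- samples, against 7.86, 7.07, 6.91, 6.77 and 7.01 in WT samples. A single sample was high in each group, Terc-/- replicate 4 and WT replicate 1, and the difference of 0.19 ± 0.30 turned to -0.07 without Terc-/- replicate 4. Aldoa, the aldolase of most cells, lay between 12.59 and 13.13 in Terc-/- samples and between 12.58 and 13.02 in WT samples (difference -0.06 ± 0.12). Eno2, an enolase typical of neurons, was not above background, between 6.15 and 6.56 in all 10 samples.

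**Figure D2:**
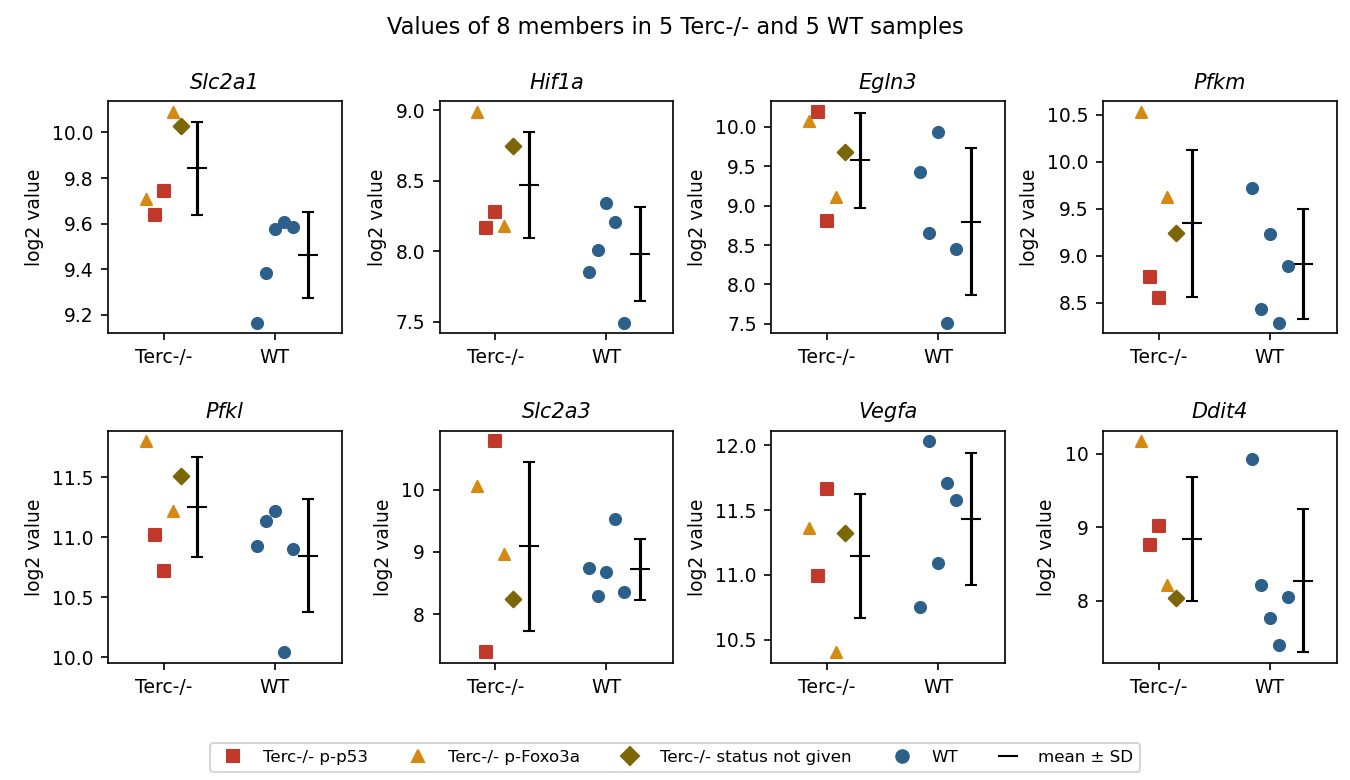
Log2 values of 8 genes in 5 Terc-/- and 5 WT samples (points, with the marker giving the phosphorylation status of each Terc-/- sample) and the group mean ± SD (bar). Only for Slc2a1 do all Terc-/- points lie above all WT points, and Slc2a3 spreads most widely among the Terc-/- samples.

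Of the genes that decide between lactate and the mitochondrion, Pdk1, the kinase that closes the entry of pyruvate into the citric acid cycle, had values of 10.25, 10.36, 9.86, 10.01 and 10.55 in Terc-/- samples, against 9.98, 9.97, 10.22, 9.87 and 9.76 in WT samples. The highest 3 of the 10 values were in Terc-/- samples, but Terc-/- replicate 3 lay below 4 WT samples. The difference was 0.24 ± 0.14 (unadjusted p = 0.105, adjusted p = 0.692 in limma). Its second probe gave a difference of 0.30. Ldha, which makes lactate, had values of 13.56, 13.91, 13.75, 14.25 and 14.29 in Terc-/- samples, against 13.94, 13.96, 14.32, 13.70 and 14.12 in WT samples. The difference of -0.06 ± 0.16 was smaller than its standard error, and the Terc-/- replicates 4 and 5 and WT replicate 3 were the high samples. Ldhb, Pdk3 and Pdha1 differed by 0.02, -0.06 and -0.04, each within 1 standard error, and Ldhb lay close to background (6.48 to 6.97 in all 10 samples).

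All 3 oxygen-sensing genes had higher means in Terc-/-. Hif1a, the oxygen-regulated subunit of the factor, had values of 8.99, 8.17, 8.28, 8.18 and 8.75 in Terc-/- samples, against 7.85, 8.01, 8.35, 8.21 and 7.49 in WT samples. The Terc-/- replicates 1 and 5 lay above all WT samples, the other 3 Terc-/- samples lay within the WT range, and WT 5+6 was the lowest. The means were 8.47 ± 0.37 in Terc-/- and 7.98 ± 0.33 in WT (SD, n = 5 each), a difference of 0.49 ± 0.20 or 1.40-fold (unadjusted p = 0.0347, adjusted p = 0.661 in limma). The difference stayed between 0.36 and 0.58 when samples were left out singly, and the unadjusted p was above 0.05 without Terc-/- replicate 1, Terc-/- replicate 5, WT replicate 1, WT replicate 2 or WT 5+6 (0.0815, 0.0815, 0.0687, 0.0540 and 0.0864).

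Egln3, an oxygen-dependent prolyl hydroxylase that is itself induced by hypoxia, had values of 10.08, 10.19, 8.81, 9.11 and 9.68 in Terc-/- samples, against 9.43, 8.66, 9.94, 7.51 and 8.45 in WT samples. Its difference of 0.78 ± 0.44 (1.72-fold, unadjusted p = 0.103) was the largest of the 29 genes. WT replicate 4 had the lowest value, and without it the difference was 0.46. A second kept Egln3 probe gave a difference of 0.37 and a correlation of 0.40 with the first over the 10 samples. Egln1, the hydroxylase that mainly marks Hif1a for destruction, lay between 6.93 and 7.26 in Terc-/- samples and between 6.66 and 7.39 in WT samples, with a difference of 0.09 ± 0.13.

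The hypoxia-induced genes had means in both directions. Vegfa, the growth factor of blood vessels, had values of 11.36, 10.99, 11.66, 10.40 and 11.32 in Terc-/- samples, against 10.75, 12.03, 11.09, 11.71 and 11.58 in WT samples. Its mean was lower in Terc-/-, by a difference of -0.29 ± 0.28, with a second probe at -0.18, and the groups overlapped. Ddit4, an inhibitor of mTOR signalling that is also induced by other stresses, had values of 10.17, 8.76, 9.02, 8.22 and 8.03 in Terc-/- samples, against 9.93, 8.22, 7.77, 7.39 and 8.06 in WT samples. The high samples were Terc-/- replicate 1 and WT replicate 1, and the difference of 0.56 ± 0.51 became 0.23 without that Terc-/- sample and 0.98 without that WT sample.

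Ndrg1, a hypoxia-induced gene of growth arrest and differentiation, had values of 10.42, 9.03, 9.03, 8.85 and 9.41 in Terc-/- samples, against 9.34, 9.56, 8.63, 8.48 and 9.31 in WT samples. Terc-/- replicate 1 again gave the highest value, and the difference of 0.28 ± 0.31 was 0.01 without it. Ankrd37, a small ankyrin-repeat gene induced by Hif1a, had values of 7.57, 7.59, 7.03, 7.90 and 7.56 in Terc-/- samples, against 7.59, 7.63, 7.41, 7.32 and 7.61 in WT samples (difference 0.02 ± 0.14). Adm, which encodes the vasodilator adrenomedullin, had values of 6.45, 6.54, 6.58, 6.55 and 6.61 in Terc-/- samples, against 6.44, 6.19, 6.47, 6.46 and 6.56 in WT samples. It was above the limit of 6.56 in 2 Terc-/- samples and in 0 WT samples, and no fold is given because its Terc-/- mean of 6.55 was itself below the limit (adjusted p = 0.731 in limma).

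P4ha1, a collagen prolyl hydroxylase, and Mxi1, an antagonist of Myc, differed by 0.07 ± 0.15 and -0.02 ± 0.17. Bnip3, a mitophagy receptor and a common marker of hypoxia, had values of 6.32, 6.30, 6.35, 6.20 and 6.41 in Terc-/- samples, against 6.35, 6.36, 6.31, 6.41 and 6.29 in WT samples, all below the limit.

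**Figure D3:**
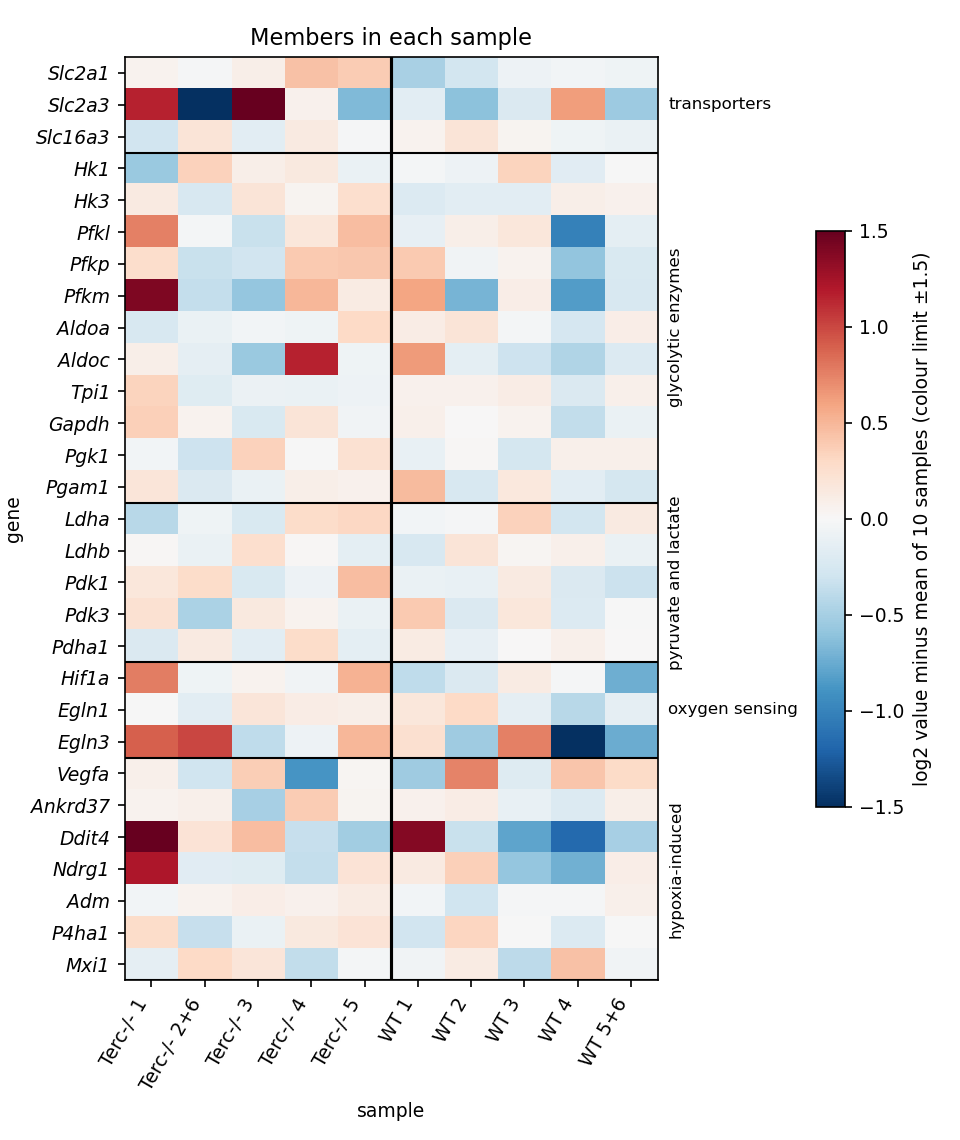
Log2 value of each tested gene (rows, grouped by role) in each of the 10 samples (columns, 5 Terc-/- left of 5 WT), as the difference from the gene's mean over the 10 samples. WT replicate 4 is the lowest sample for 10 of the 29 genes (13.3% of all genes), and Terc-/- replicate 1 the highest for 7 (16.5% of all genes).

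Across samples, the mean deviation of the 29 genes from their overall means was 0.28, -0.09, 0.01, 0.08 and 0.10 in Terc-/- samples 1, 2+6, 3, 4 and 5, against 0.07, -0.05, -0.03, -0.26 and -0.12 in WT samples 1, 2, 3, 4 and 5+6. The groups overlapped, with Terc-/- replicate 1 highest and WT replicate 4 lowest. Terc-/- replicate 1 had the highest value of the 10 samples for 7 of the 29 genes (16.5% of all genes were highest there), and WT replicate 4 had the lowest for 10 (13.3% of all genes). Terc-/- replicate 5 was lowest for 0 of the 29 (8.37% of all genes) and highest for 5 (5.9% of all genes). Leaving out single samples, the count of higher means ranged from 18 (without Terc-/- replicate 3) to 24 (without Terc-/- replicate 1). The median difference of the glycolytic enzymes ranged from 0.06 (without WT replicate 4) to 0.17 (without Terc-/- 2+6), and that of the hypoxia-induced genes from 0.01 (without Terc-/- replicate 1) to 0.12 (without Terc-/- 2+6).

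**Figure D4:**
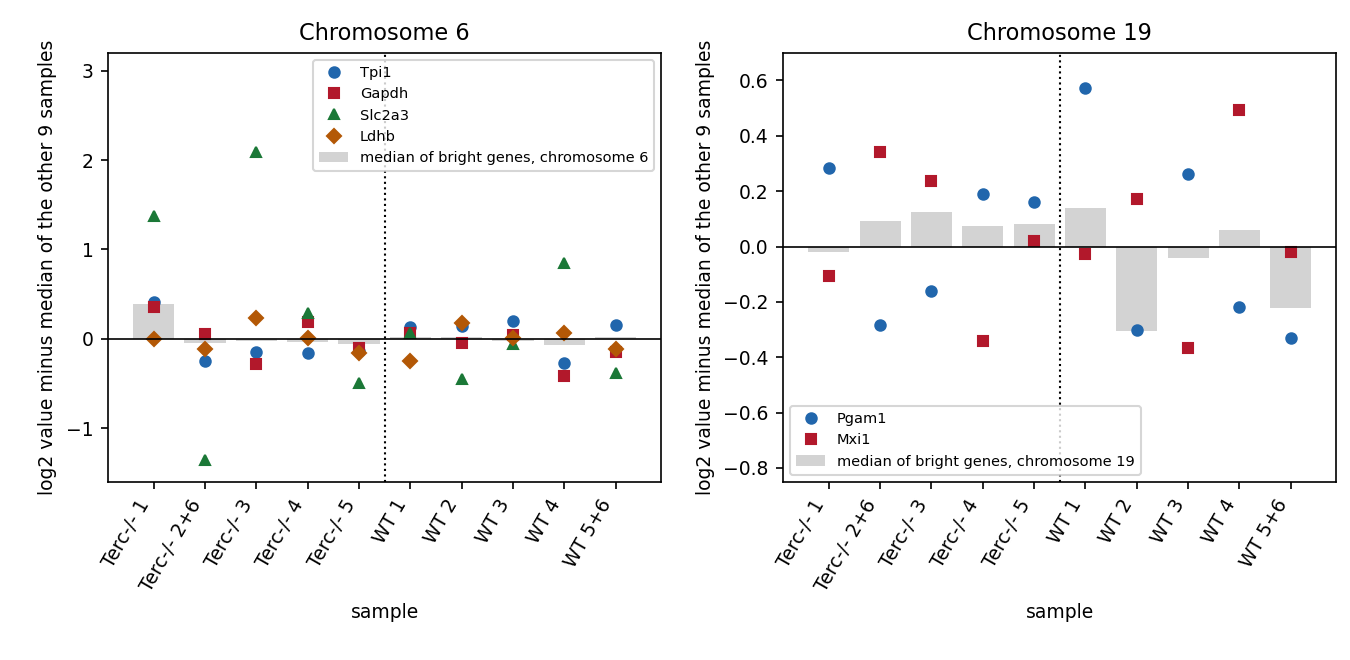
Log2 value minus the median of the other 9 samples for the tested genes on chromosome 6 (left) and chromosome 19 (right), by sample, with bars for the median of all genes on that chromosome with a mean above 8. In Terc-/- replicate 1 the chromosome 6 bar stands at 0.39 with Tpi1 at 0.41 and Gapdh at 0.36, and in WT replicate 2 and WT 5+6 the chromosome 19 bars stand at -0.30 and -0.22 with Pgam1 at -0.30 and -0.33.

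The chromosome 6 genes split in Terc-/- replicate 1, in which Tpi1, Gapdh and Slc2a3 lay 0.41, 0.36 and 1.37 above the median of the other samples and Ldhb lay at it (-0.0044). On chromosome 19, the deviation of Pgam1 was -0.30 in WT replicate 2 and -0.33 in WT 5+6, while that of Mxi1 was 0.17 in WT replicate 2. With the chromosome medians removed, Terc-/- minus WT was 0.11 for Gapdh (0.13 before), 0.35 for Slc2a3 (0.37), -0.06 for Tpi1 (-0.04), -0.10 for Mxi1 (-0.02) and 0.28 for Pdk1 (0.24).

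The labels divide the Terc-/- samples by phosphorylation, and each status (2 samples) was compared with WT, and p-p53 with p-Foxo3a. Ser15 of p53 is phosphorylated by DNA damage kinases, and Ser253 of Foxo3a by Akt, which keeps Foxo3a out of the nucleus. No gene passed an adjusted p of 0.05 in limma in any of the 3 comparisons (0.0% of genes each). The comparisons with WT share the WT samples.

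In p-Foxo3a minus WT, 23 of 29 genes had a higher mean, with a median difference of 0.16. Over all genes 46.95% had a higher mean, with a median of -0.015. Adm, among the 23, was below the background limit in both p-Foxo3a samples (6.45 and 6.55) and in every WT sample. At an unadjusted p under 0.05, 3 were higher and 0 lower, against 4.24% and 5.47% of all genes. Pfkm averaged 10.08 ± 0.63 in the p-Foxo3a samples (SD, n = 2) and 8.91 ± 0.59 in WT (SD, n = 5), a difference of 1.17 ± 0.39 or 2.24-fold (unadjusted p = 0.0169, adjusted p = 0.469 in limma). The other Pfkm probe followed the same pattern over the 10 samples (r = 0.956). Slc2a1 differed by 0.44 ± 0.16 (adjusted p = 0.487) and Gapdh by 0.34 ± 0.15 (adjusted p = 0.513). With 1 of the 2 samples left out, the unadjusted p was above 0.05 for Pfkm without Terc-/- replicate 1 (difference 0.72), for Slc2a1 without replicate 4 (0.25) and for Gapdh without either (0.26 and 0.43). For Gapdh the difference was 0.27 with chromosome medians removed. In the same comparison 17 of 20 proliferation genes had a lower mean (12 with an unadjusted p under 0.05, median -0.48), as did 11 of 12 neutrophil markers (median -1.01), and their part in these differences was not tested.

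In p-p53 minus WT, 14 genes had a higher and 15 a lower mean, with a median of -0.01. Over all genes 47.03% had a higher mean, with a median of -0.01. Adm, among the 14, was above the background limit in Terc-/- replicate 3 (6.58) but not in Terc-/- 2+6 (6.54) or in any WT sample. Of the 29 genes, 0 had an unadjusted p under 0.05 in limma, against 1.26% of all genes higher and 1.36% lower. The smallest p-values belonged to Slc2a1 (0.23 ± 0.16), Adm (near background) and Ankrd37 (-0.20 ± 0.17). Glycolytic enzymes had 4 higher and 7 lower means there, against 9 higher and 2 lower in p-Foxo3a minus WT. Proliferation genes had 18 of 20 lower means (median -0.15) and neutrophil markers 11 of 12 (median -0.41) in p-p53 minus WT.

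Set against each other, p-p53 samples had lower means than p-Foxo3a samples in 21 of 29 genes, with a median difference of -0.21. Over all genes 51.76% had a higher mean in p-p53 samples, with a median difference of 0.009. At an unadjusted p under 0.05, 0 were higher and 3 lower, against 2.6% and 2.54% of all genes. All 3 were glycolytic enzymes. Pfkm averaged 8.66 ± 0.16 in p-p53 and 10.08 ± 0.63 in p-Foxo3a samples (SD, n = 2 each), a difference of -1.42 ± 0.47. Pfkp averaged 9.53 ± 0.03 in p-p53 and 10.17 ± 0.09 in p-Foxo3a samples (-0.64 ± 0.27). Its second probe had a correlation of 0.474 with the first over the 10 samples. That probe stood at 8.15 and 8.04 in p-p53 and at 8.915 and 8.83 in p-Foxo3a samples. With the mean of its kept probes the Pfkp difference was -0.71 (unadjusted p = 0.00184, adjusted p = 0.930 in limma). Aldoc averaged 6.87 ± 0.30 in p-p53 and 7.84 ± 0.75 in p-Foxo3a samples (-0.97 ± 0.41). The adjusted p was 0.944 for all 3 in limma, and the Terc-/- replicate 1, which stood apart, is 1 of the 2 p-Foxo3a samples. Without it the differences were -0.97 for Pfkm, -0.70 for Pfkp and -1.498 for Aldoc, and without replicate 4 that of Aldoc was -0.44. The unadjusted p was above 0.05 for Pfkm without Terc-/- replicate 1 or 3, for Aldoc without 2+6, 3 or 4, and for Pfkp without any one of these 4 samples. The same happened with WT samples left out singly, for Aldoc without WT replicate 2, 3, 4 or 5+6. For Pfkp it happened without WT replicate 2, 3 or 5+6. In p-p53 minus p-Foxo3a, 22 of 23 immediate early genes had a lower mean (median -0.31), 16 of 20 proliferation genes a higher one (median 0.37) and 9 of 12 neutrophil markers a higher one (median 0.40), and their part was not tested.

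**Figure D5:**
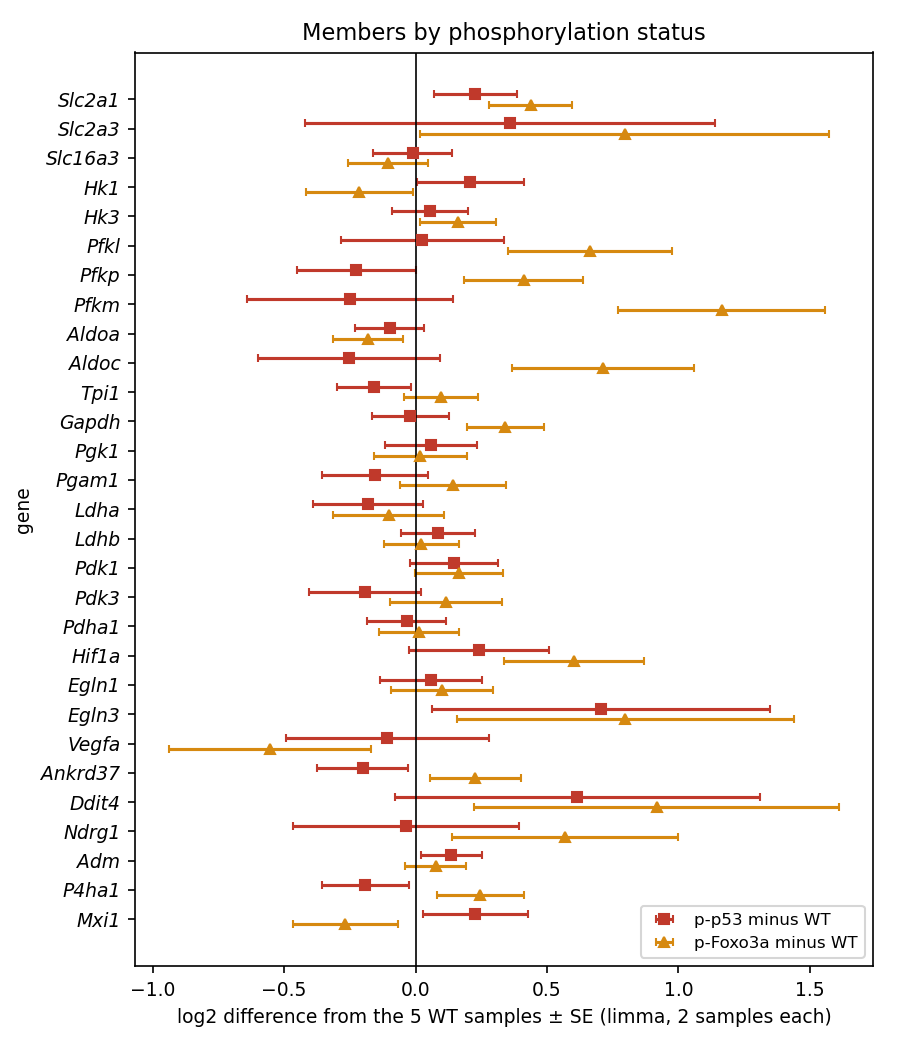
Difference from the 5 WT samples in log2 value (± SE, limma) of each tested gene, for the 2 p-p53 samples (squares) and the 2 p-Foxo3a samples (triangles). The triangle of Pfkm stands at 1.17 and its square at -0.25, and 23 triangles but 14 squares lie right of 0. Adm, which was above the background limit in 2 Terc-/- samples and 0 WT samples, is counted in both.

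The rest of the pathway was followed through lists of other genes. Of 22 other genes of glycolysis and its surroundings, 8 had a higher and 14 a lower mean in Terc-/-, with a median of -0.03. Pkm, the pyruvate kinase of proliferating cells, averaged 14.33 ± 0.12 in Terc-/- and 14.06 ± 0.23 in WT (SD, n = 5 each), a difference of 0.28 ± 0.11. Dld, a subunit of the pyruvate dehydrogenase complex, differed by -0.24 ± 0.11, and Bsg, the chaperone of lactate transporters, by 0.43 ± 0.20. In the pentose phosphate pathway 2 of 8 genes were higher, with Prps1 (-0.35 ± 0.16), Rpe (-0.23 ± 0.13) and Taldo1 (-0.16 ± 0.14) of smallest p. In glycogen metabolism 9 of 12 were higher. Among the 9 is Pygm, the muscle glycogen phosphorylase, which passed the filter only through Terc-/- samples (above the limit in 2 Terc-/- and 0 WT samples, with no fold given), and 8 of the other 11 were higher. By the same naming rule as elsewhere, Pygm, Ugp2 (-0.44 ± 0.20) and Gyg (-0.23 ± 0.12) had the smallest p.

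Of 11 further genes of oxygen sensing, 6 had a higher mean, led by the ubiquitin ligase Siah1a (0.32 ± 0.13), with its relative Siah2 at -0.35 ± 0.21 and the ligase subunit Rbx1 at -0.12 ± 0.06. Of 29 further hypoxia-induced genes, 14 were higher and 15 lower, with a median of -0.01. Those of smallest p were Narf (-0.45 ± 0.16), the adenylate kinase Ak4 and the carbonic anhydrase Car9 (-0.37 ± 0.16). Ak4 passed the filter only through Terc-/- samples, being above the limit in 3 Terc-/- and 0 WT samples (means 7.03 and 6.45), and a gene chosen in this way had to differ, so nothing is read from it; without it 13 of 28 were higher. Of 29 genes of respiration and the citric acid cycle, 21 had a lower mean and 4 of them an unadjusted p under 0.05 (4.64% of all genes were lower at that p), with the smallest p in Cyc1 (-0.39 ± 0.09), Idh3b (-0.28 ± 0.11) and Sdhb (-0.24 ± 0.10). No gene in these lists had an adjusted p under 0.05.

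Values of other programmes are given here beside the differences above, and their part in those differences was not tested. Of 12 neutrophil markers, 12 had a lower mean in Terc-/- (median -0.71), 2 of them with an unadjusted p under 0.05 in limma. Their mean deviation per sample ranged from -1.44 to 0.93 in Terc-/- and from -0.12 to 0.95 in WT. Of 20 proliferation genes, 18 were lower (median -0.33), 6 of them with an unadjusted p under 0.05 in limma (4.64% of all genes lower). Their mean deviation ranged from -0.61 to 0.04 per sample in Terc-/- and from -0.02 to 0.28 in WT, with Terc-/- replicate 1 the lowest. Immediate early genes, which respond to handling among other stimuli, ranged from -0.82 to 0.43 in Terc-/- and from -0.83 to 0.59 in WT, and 14 of 23 had a higher mean, with 0 at an unadjusted p under 0.05 in limma (2.79% of all genes higher and 4.64% lower).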

How the data were processed

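The authors deposited log2 values for 38502 probes of the bead arrays. Per the submitters' processing notes GenomeStudio was used, with the version and normalization not given in the sources used here. The log base was read from the range, array medians of 6.57 to 6.58 and ranks within 0.0945 look quantile-normalized, and no background subtraction was visible, so differences understate change, most in dim genes. A deposited raw table of 24 columns names no sample and was not used.

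The members and lists were chosen with earlier results of these data known. The background mode (6.345) and its lower spread (SD 0.132) set a limit of 6.56, a one-sided tail of 0.05. Probes above it on at least 3 arrays were kept (22292), and the brightest stood for each of 12061 genes. Of the annotated probes, 32034 had 1 gene and 16 several, 6452 were not listed, and 31976 matched by Entrez identifier. Of 14 members with several kept probes, 11 agreed in sign. Near-identical arrays of 1 group (0 probes differing 2-fold, r at least 0.9958, other pairs at most 0.990) were averaged. Fits used lmFit and eBayes of limma 3.58.1 (R 4.3.3), two-sided, Benjamini-Hochberg threshold 0.05. Status comparisons used 1 fit of 3 levels over 9 samples. The fits were tested on simulated data. Promoters came from RefSeq (GRCm38.p6). Genes given in every sample are the 12 of smallest p, 8 fixed genes and the 3 of smallest p in each status comparison, and the 3 of smallest p in each other pathway list are named. Alternatives covered arrays kept apart, dim-probe filters, probe choice, centring, background, prior, weights, replicate block, chromosome medians, a 4-level fit and leaving out samples.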

Additional observations from a re-analysis of the deposited data

Results flagged for a closer look

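In each group of 5 samples, the highest and lowest value of every tested gene was compared with its neighbours. Of 58 such groups, 4 (6.90%) held a sample far from the others, where chance flags about 1 in 20. Pfkl stood at 10.04 in WT replicate 4, against 10.90 to 11.22 in the other WT samples. Aldoc stood at 7.857 in WT replicate 1, against 6.77 to 7.07. Tpi1 stood at 14.07 in Terc-/- replicate 1, where its group otherwise spanned 13.55 to 13.66, and at 13.52 in WT replicate 4, against 13.80 to 13.85 in the other WT samples.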

How the results depend on the processing

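With 5 samples a group, and dim genes near background, small differences are not detectable, so a higher mean without a passed test is a description. Besides leaving out samples, 10 alternatives were run on Terc-/- minus WT and 11 on the status comparisons. In Terc-/- minus WT, Slc2a1 kept its direction and an unadjusted p under 0.05 under those 10 (0.33 to 0.41) and with each sample left out (0.31 to 0.43). The cause of the changes below was not tested. Counts of the 29 genes with an unadjusted p under 0.05 in Terc-/- minus WT were 4 with all 12 arrays as separate samples (10.9% of all genes) and 5 with the mean of probes (7.51%), against 2 as reported (7.43%). In p-Foxo3a minus WT they were 6 under both (12.9% and 9.76%), against 3 (9.71%), and in p-p53 minus p-Foxo3a 6 with all arrays (10.1%), against 3 (5.13%). Over all alternatives they were 2 to 5, 2 to 6 and 2 to 6 in that order. In p-Foxo3a minus WT the p of Gapdh was 0.0935 with background subtracted, 0.0697 with array weights, 0.0555 with the stricter filter and 0.0765 with chromosome medians removed, and in p-p53 minus p-Foxo3a that of Pfkp was 0.0571 and 0.0653 under the first and second of these. Genes past the threshold numbered 1 in p-p53 minus WT with all arrays or with background subtracted, and 1 in p-p53 minus p-Foxo3a with background subtracted.

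With all arrays, Slc16a3 turned to 0.0023, Hk1 to 0.0381 and Mxi1 to 0.0366. With the mean of probes, Slc16a3 was 0.0202 and Hk1 0.0746. With array weights, Hk1 was 0.0047 and Ankrd37 -0.0215. With chromosome medians removed, Pgam1 was -0.0676 and Ldhb -0.0023. Replicate numbers pair no samples in the labels, and the deviations of same-numbered samples correlated at -0.199 to 0.14. Among the Terc-/- samples, only replicate 1 correlated best with the WT sample of its own number. The replicate block gave 1 gene past the threshold in Terc-/- minus WT, and 1 of the 29 genes with an unadjusted p under 0.05 in p-p53 minus WT. Under that block the unadjusted p was 0.0814 for Hif1a, 0.0671 for Gapdh in p-Foxo3a minus WT, and 0.156 for Pfkp and 0.441 for Aldoc (difference -0.65) in p-p53 minus p-Foxo3a.

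With single samples left out, genes past the threshold ranged from 0 to 1 in Terc-/- minus WT, 0 to 15 in p-p53 minus WT, 0 to 258 in p-Foxo3a minus WT and 0 to 29 in p-p53 minus p-Foxo3a, each highest without Terc-/- replicate 3 or 4. Leaving out 1 of 2 status samples assumes that the lone one varies like the others. Of the 29 genes, those with an unadjusted p under 0.05 ranged from 1 to 3, 0 to 3, 2 to 6 and 1 to 5 in the same order. The median in p-p53 minus p-Foxo3a ranged from -0.26 to -0.0562. Directions changed for Aldoc (-0.0724 to 0.37), Ankrd37 (-0.0728 to 0.15), Egln1 (-0.0036 to 0.18), Hk1 (-0.12 to 0.11), Ldha (-0.14 to 0.0390), Ldhb (-0.0448 to 0.0663), Mxi1 (-0.13 to 0.0834), Pdha1 (-0.12 to 0.0068), Pdk3 (-0.12 to 0.0566), Pgam1 (-0.0563 to 0.13), Slc16a3 (-0.11 to 0.0091) and Slc2a3 (-0.0534 to 0.79), and in p-p53 minus WT for Ankrd37 (-0.48 to 0.0834). Centring samples moved the median of all genes in Terc-/- minus WT to 0.0069.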
